A study of Mus musculus with 12 samples.

Results

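The effect of EMPA on mouse bone marrow was examined here as 1 contrast, the mean of the 2 groups given EMPA minus the mean of the 2 groups not given it. All 12 of the 12 libraries entered it, 6 with EMPA and 6 without. The groups were Sham-E (sham operation with EMPA), MI-E (myocardial infarction with EMPA), Sham (sham operation alone) and MI (infarction alone), with 3 libraries each. All mice were of strain C57BL/6N, and the treatment protocol describes a thoracotomy under isoflurane with ligation of the LAD, the coronary artery that feeds the front wall of the left ventricle. RNA came from whole marrow, so many cell types contribute to every value, and fewer cells of a type cannot be told apart from less RNA per cell. The sources used here do not give the dose of EMPA, its schedule, the age and sex of the mice or the day of sampling. The labels do not say whether libraries came from separate mice, so p-values measure the spread between these samples, which may be technical.

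EMPA is the usual short form of empagliflozin, which blocks SGLT2, the sodium-glucose cotransporter that recovers filtered glucose in the kidney. The title of the series concerns naive B lymphocytes of the marrow after infarction. Marrow makes B cells in stages. Pro-B and pre-B cells cut and join their antigen receptor genes with the Rag enzymes and terminal transferase, immature cells carry IgM, and naive mature cells, some of which return to the marrow from the blood, carry IgM with IgD, the follicle receptor CXCR5 and much MHC class II. Class II molecules are pairs of alpha and beta chains that present peptides to helper T cells. They are loaded with the help of the invariant chain (Cd74) and of the H2-DM and H2-O proteins, and their genes are switched on together by the coactivator CIITA.

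The libraries held 21175087 to 24606783 counts, and 15119 genes were tested. Of 57 marker genes of marrow cell types, 0 were at 0 counts in any library. The median Pearson r of log2 CPM (edgeR counts scaled to a common library size with TMM factors) with the other libraries of its group was lowest for Sham-E 1 (0.952), followed by MI 3 (0.954) and MI 2 (0.959), and was 0.963 to 0.987 in the others. Sham-E 1 stood apart in early B-lineage genes and in lists of other cell types, and MI 3 was the lowest library in the mature B cell markers Ms4a1, Cd79a, Ighd, Fcer2a and Cr2. The mean log2 CPM of early B-lineage genes was 3.29 in Sham-E 1, against 6.22 and 6.21 in the other Sham-E libraries and 6.14 to 6.49 in Sham. For erythroid genes it was 6.50 in Sham-E 1, against 8.45 and 9.29 in the other Sham-E libraries. For interferon response genes it was 3.94, against 5.55 and 5.67. Some of the results that rest on Sham-E 1 are also given without it. The mean insert length of the fragments was 271.0 to 280.3 bp in Sham-E and 284.1 to 286.8 bp in Sham, but 280.0 to 282.5 bp in MI-E and 263.0 to 265.1 bp in MI. It was therefore shorter with EMPA in sham mice and longer with EMPA in infarcted mice, and its part in the results was not tested.

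No gene passed an adjusted p of 0.05 for the averaged effect of EMPA (0 of 15119, 0%; edgeR quasi-likelihood test, Benjamini-Hochberg adjustment over all genes). An unadjusted p under 0.05 was reached by 869 genes (5.75%), 491 of them higher with EMPA (3.25%) and 378 lower (2.5%). The smallest adjusted p was 0.0757, for B430305J03Rik, and the next was 0.81, so every other gene named below had an edgeR adjusted p of 0.81 or more. DESeq2 called 9 genes, 7 higher and 2 lower. Of these, 5 met the rule for named genes: Cacna1i (DESeq2 adjusted p = 0.0121), H2-Eb2 (0.0403), Zfp318 (0.0495), Bglap (0.04) and Bglap2 (0.0473).

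The 2 operations share no library, so EMPA's effect could be read in each by itself. Across genes the log2 fold changes in sham and in infarcted mice ran against each other, with a Pearson r of -0.21 and a Spearman rho of -0.24 over 15119 genes, which share libraries and are not independent replicates. The sign was the same in both operations in 5978 genes (39.5%). In sham mice alone, Sham-E against Sham gave 0 called genes (0%) and 287 at an unadjusted p under 0.05 (1.9%). MI-E against MI gave 1 called gene (0.00661%, and 988 genes without MI 1) and 2630 at an unadjusted p under 0.05 (17.4%). Without overlap of libraries were 1358 genes in sham mice (8.98%) and 3275 in infarcted mice (21.7%). An unadjusted p under 0.05 in both operations was seen with the same sign in 13 genes (0.086%) and with opposite signs in 54 (0.357%). The averaged contrast therefore joins a set of small differences in sham mice with larger ones in infarcted mice.

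Genes were called alike where all 3 EMPA libraries lay above, or all 3 lay below, the 3 libraries without EMPA in both operations. There were 57 such genes (0.377% of those tested), 34 higher (0.225%) and 23 lower (0.152%). Genes without overlap in opposite directions numbered 295 (1.95%), of which 151 were higher with EMPA in sham mice and lower in infarcted mice (0.999%), and 144 the reverse (0.952%). Alike genes were thus fewer than genes in opposite directions. In single operations, all Sham-E libraries lay above Sham in 4.52% of genes and below in 4.46%. All MI-E libraries lay above MI in 11.6% and below in 10.1%. Whether more or fewer genes were alike than unrelated operations would give was not tested. Of the 57 alike genes, 47 had an unadjusted p under 0.05 in the averaged contrast, where the same libraries set both measures. The 34 higher genes had averaged log2 fold changes of 0.12 to 2.38 (median 0.44), and the 23 lower genes -4.08 to -0.17 (median -0.58). Over all genes the median was 0.00083.

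**Figure D1:**
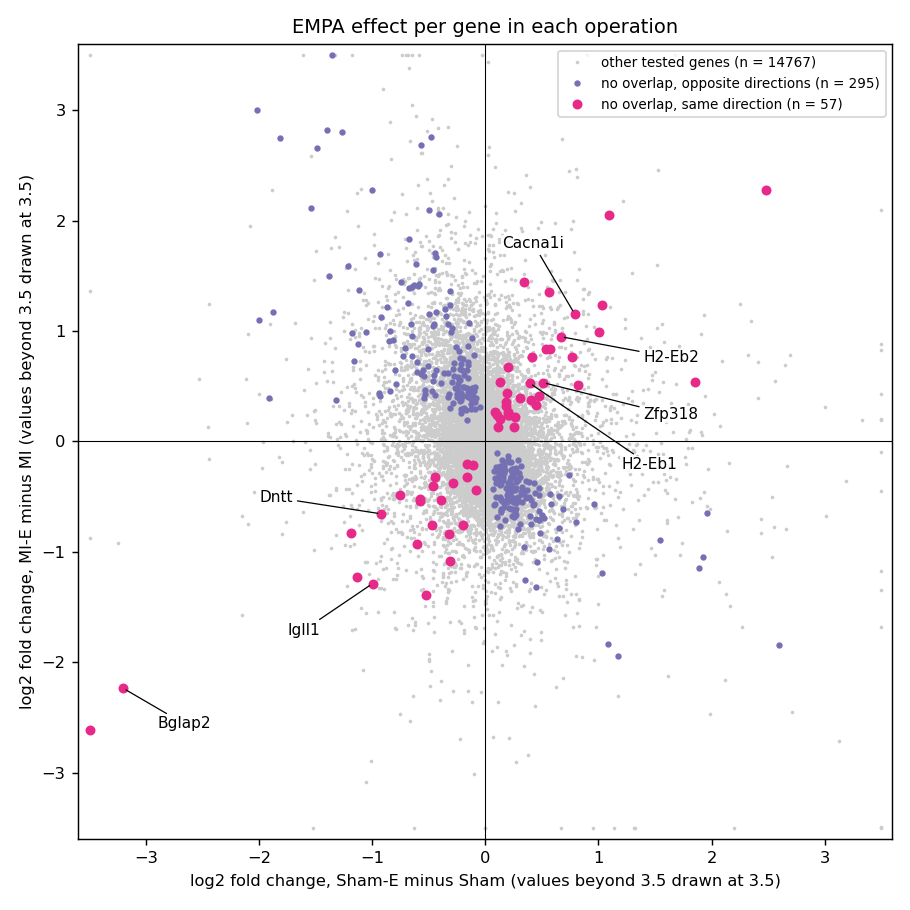
Log2 fold change with EMPA in sham mice (x axis) and in infarcted mice (y axis) for the 15119 tested genes, 1 point per gene. The 57 genes without overlap in the same direction lie in the upper right (34) and lower left (23), and 295 genes without overlap in opposite directions fill the other corners.

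Class II chain genes were 3 of the 34 genes alike and higher: H2-Eb1 and H2-Aa, which encode a beta and an alpha chain, and H2-Eb2, a further beta chain gene beside H2-Eb1. H2-Eb1 had 187, 186 and 229 CPM in Sham-E against 162, 176 and 122 in Sham, and 198, 266 and 205 in MI-E against 179, 129 and 155 in MI. H2-Aa had 231, 231 and 274 CPM in Sham-E against 184, 211 and 136 in Sham, and 259, 344 and 252 in MI-E against 243, 167 and 235 in MI. H2-Eb2 had 7.48, 8.46 and 8.62 CPM in Sham-E against 6.06, 6.07 and 3.33 in Sham, and 8.12, 10.4 and 7.64 in MI-E against 5.25, 3.87 and 4.44 in MI. In each of the 3 genes the EMPA libraries lay above those without EMPA in both operations, by a narrow margin for H2-Eb1 in Sham-E and for H2-Aa in MI-E. The averaged log2 fold changes were 0.46 ± 0.13 for H2-Eb1 (SE; unadjusted p = 0.00362), 0.44 ± 0.14 for H2-Aa (0.00857) and 0.81 ± 0.18 for H2-Eb2 (0.000598), none past the edgeR threshold (adjusted p = 0.81). These 3 genes were alike by TPM as well, which scales for transcript length. H2-Eb1 and H2-Eb2 are related in sequence, and how reads were shared between them is uncertain.

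The start sites of these 3 genes are shown because class II genes are read through a shared promoter block. The windows run from 250 bases before to 50 bases after the RefSeq start on GRCm38.p6, in the direction of the gene. The capitals mark GCAAC, a core of the X box to which the RFX complex binds, and TGATTGG, the Y box to which NF-Y binds, where the pair stand in this order within 60 bases. Further copies of GCAAC in the H2-Eb2 window were left in lower case. H2-Eb1 is chr17:34305617-34305916 on the plus strand, H2-Eb2 is chr17:34325425-34325724 on the plus strand, and H2-Aa is chr17:34287774-34288073 on the minus strand.
H2-Eb1: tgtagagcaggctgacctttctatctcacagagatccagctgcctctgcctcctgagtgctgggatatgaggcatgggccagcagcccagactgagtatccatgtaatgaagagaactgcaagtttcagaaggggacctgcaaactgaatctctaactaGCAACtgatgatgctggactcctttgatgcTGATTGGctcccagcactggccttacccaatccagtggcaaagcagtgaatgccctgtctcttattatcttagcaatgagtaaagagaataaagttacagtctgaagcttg
H2-Eb2: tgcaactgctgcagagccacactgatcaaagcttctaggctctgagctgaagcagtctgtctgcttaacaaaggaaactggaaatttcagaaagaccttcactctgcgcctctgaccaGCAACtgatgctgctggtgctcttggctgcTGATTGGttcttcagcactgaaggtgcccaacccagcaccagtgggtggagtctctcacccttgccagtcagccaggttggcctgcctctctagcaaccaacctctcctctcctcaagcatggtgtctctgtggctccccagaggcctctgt
H2-Aa: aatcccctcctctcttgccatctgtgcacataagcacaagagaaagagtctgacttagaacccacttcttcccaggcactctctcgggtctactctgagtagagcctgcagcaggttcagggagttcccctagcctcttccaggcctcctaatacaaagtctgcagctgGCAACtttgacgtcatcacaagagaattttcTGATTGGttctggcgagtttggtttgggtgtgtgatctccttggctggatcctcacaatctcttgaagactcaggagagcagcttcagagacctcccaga
Both motifs stood on the strand of the gene, 25 bases apart in H2-Eb1 and H2-Eb2 and 26 bases apart in H2-Aa. The letters were chosen after these windows had been read. On either strand, GCAAC was found in 35.21% and TGATTGG in 7.82% of all 32851 RefSeq windows of the same length; the motifs do not overlap. Both in this order within 60 bases were found in 165 windows (0.502%). Of the 11 tested class II genes, 8 had a window in the table, and H2-Ob and H2-Oa held the same pair beside the 3 above, giving 5 of 9 windows. Of the 34 genes alike and higher, 24 had windows, and the 3 class II genes were the holders of the pair. Of the 23 genes alike and lower, 13 had windows, with the pair in 0 of 18.

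The averaged log2 fold change was positive in all 11 tested genes of class II presentation, with a median of 0.41, and in 10 of the 11 it was positive in each operation (19.8% of all genes were). This list was put together after values had been seen. Of the 11, 7 had an unadjusted p under 0.05, all higher with EMPA, against 3.25% of all genes. Ciita had 43.8, 39.2 and 41.5 CPM in Sham-E against 31.6, 39.8 and 26.0 in Sham, and 37.9, 39.3 and 38.9 in MI-E against 30.4, 25.7 and 27.6 in MI (log2 0.41 ± 0.11). H2-DMb2, a chain of the peptide-loading protein, had 39.9, 35.0 and 34.6 CPM in Sham-E against 29.4, 35.6 and 22.1 in Sham, and 38.1, 56.9 and 43.4 in MI-E against 28.8, 25.8 and 24.0 in MI (0.57 ± 0.13). Both were free of overlap in infarcted mice, and in sham mice Sham 3 reached into the range of Sham-E. Cd74, the invariant chain, overlapped in both operations (0.44 ± 0.16), as did H2-DMa (0.14 ± 0.13). The summed level of the 11 genes was 1599 to 2014 CPM in Sham-E against 1153 to 1718 in Sham, and 1753 to 2397 in MI-E against 1235 to 1695 in MI. With any 1 library left out the median stayed between 0.35 and 0.50, and it was 0.43 without Sham-E 1.

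**Figure D2:**
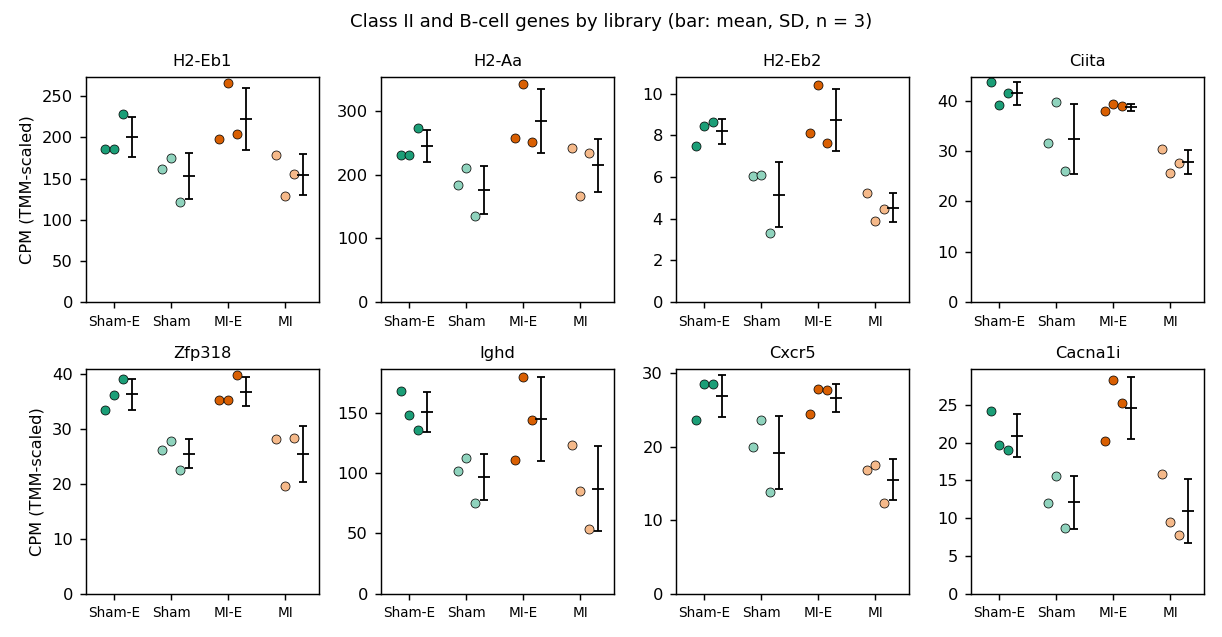
CPM of class II genes, B-cell genes and Cacna1i in every library (points), with mean and SD over 3 libraries (bars), for Sham-E, Sham, MI-E and MI. H2-Eb1, H2-Aa, H2-Eb2, Zfp318 and Cacna1i had no overlap in either operation, whereas Ciita and Cxcr5 overlapped in sham mice and Ighd in infarcted mice.

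Genes of naive mature B cells followed the same direction, but not the whole list did. Zfp318, which mouse B cells need to make IgD, had 33.5, 36.2 and 39.1 CPM in Sham-E against 26.2, 27.7 and 22.6 in Sham, and 35.3, 35.2 and 39.9 in MI-E against 28.3, 19.6 and 28.4 in MI. Its log2 fold change was nearly the same in both operations, 0.51 in sham mice and 0.53 in infarcted mice (averaged 0.52 ± 0.11, unadjusted p = 0.000466), and no library overlapped. By TPM it overlapped in sham mice. Ighd, the constant region of IgD, had 168, 148 and 135 CPM in Sham-E against 102, 112 and 75.5 in Sham, and 111, 179.8 and 144 in MI-E against 123, 84.9 and 53.3 in MI. All Sham-E libraries were higher than all Sham libraries, while MI-E 2 lay below MI 1 (averaged log2 0.69 ± 0.19, unadjusted p = 0.00361, and log2 0.56 without MI 3). Cxcr5, the receptor for follicle homing, had 23.6, 28.5 and 28.5 CPM in Sham-E against 19.96, 23.7 and 13.9 in Sham, and 24.5, 27.9 and 27.7 in MI-E against 16.8, 17.4 and 12.3 in MI. MI-E and MI did not overlap, and Sham-E 1 and Sham 3 were nearly equal (0.63 ± 0.14, unadjusted p = 0.000641).

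Of 33 tested genes on the mature B cell list, 25 had a positive averaged log2 fold change (50.2% of all genes did), and the median was 0.32. Of the 33, 11 had an unadjusted p under 0.05, all higher with EMPA, against 3.25% of all genes, and 6 of those 11 are class II genes or Ciita. The others, some named after their values were seen, were Cxcr5, Ighd, the inhibitory receptor gene Cd22 (0.48 ± 0.13), Fcmr, the IgM Fc receptor gene (0.41 ± 0.14), and Ltb, a lymphotoxin chain gene (0.47 ± 0.20). Ms4a1, which encodes CD20, had an averaged log2 fold change of 0.13 ± 0.24 (-0.026 without MI 3), and Ighm, the constant region of IgM, -0.14 ± 0.20. Cd79a, the signalling chain of the antigen receptor, was 1.00 higher on the log2 scale in MI-E than in MI and 0.46 lower in Sham-E than in Sham. It was without overlap in infarcted mice and with overlap in sham mice (averaged 0.27 ± 0.21, and 0.41 without Sham-E 1). In Sham-E 1 it had 112.5 CPM, against 240.9 and 225.9 in the other Sham-E libraries. The list averaged a log2 CPM of 5.88, 6.34 and 6.395 in Sham-E against 6.08, 6.44 and 5.93 in Sham, which overlapped, and 6.02, 6.48 and 6.13 in MI-E against 5.91, 5.92 and 5.38 in MI, which did not. The lowest value, 5.38, was that of MI 3. Dendritic cells and monocytes also carry class II, and their part in the class II values was not tested. On the list of their other genes 9 of 21 had a positive and 12 a negative averaged log2 fold change, between -0.34 and 0.69 (median -0.06).

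**Figure D3:**
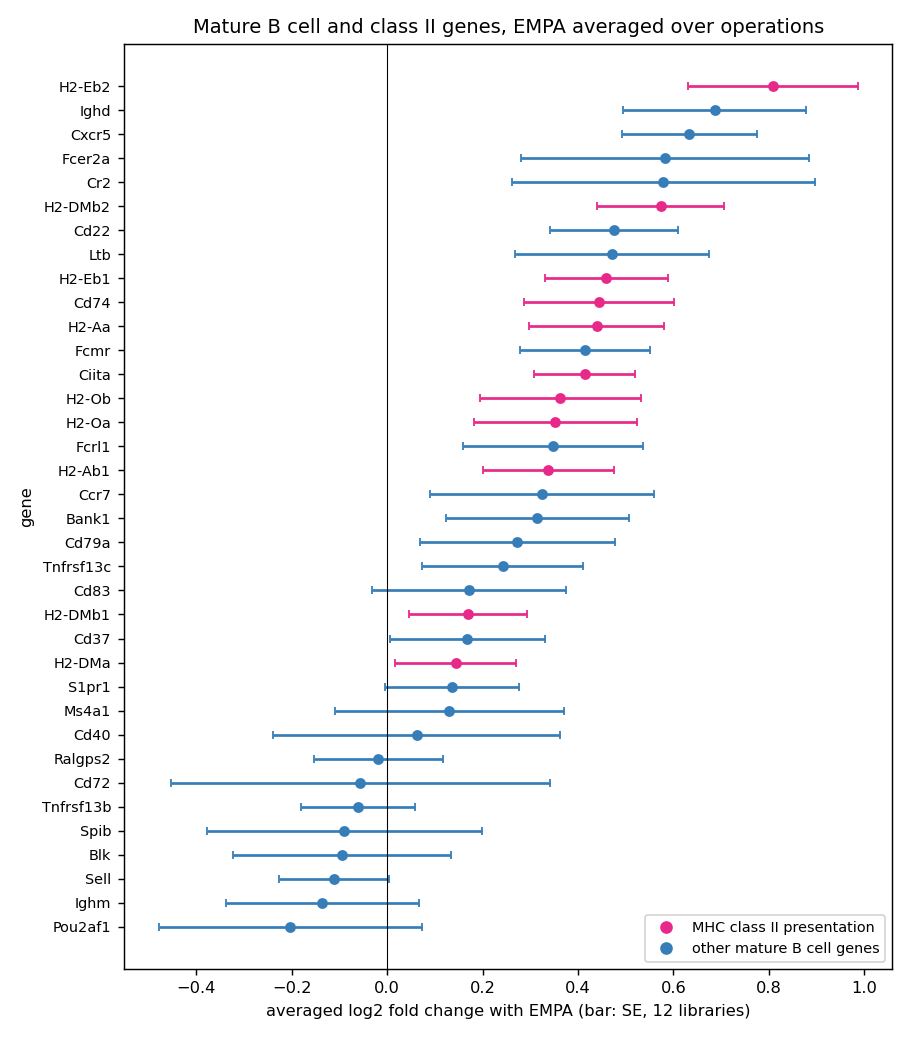
Averaged log2 fold change with EMPA (point) and SE (bar) over 12 libraries for the tested mature B cell and class II genes, in order of size. All 11 class II genes lie right of 0, while Ighm, Blk, Spib and Pou2af1 lie left of it.

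The gene with the smallest p among those alike was Cacna1i, which encodes a T-type calcium channel (Cav3.3). It had 24.1, 19.6 and 19.0 CPM in Sham-E against 12.0, 15.6 and 8.66 in Sham, and 20.2, 28.3 and 25.2 in MI-E against 15.8, 9.47 and 7.75 in MI. No library overlapped, and the averaged log2 fold change was 0.97 ± 0.19 (unadjusted p = 0.000244, edgeR adjusted p = 0.81), 0.79 in sham mice and 1.15 in infarcted mice. Without MI 1 edgeR called it, at an adjusted p of 0.0438 and a log2 fold change of 1.15.

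Cd6, a surface receptor of T cells and of some B cells, had 5.92, 6.6 and 7.02 CPM in Sham-E against 3.92, 5.91 and 3.61 in Sham, and 7.06, 9.96 and 8.74 in MI-E against 6.13, 3.32 and 4.93 in MI. Sham-E 1 and Sham 3 differed by little, and by TPM Cd6 overlapped in sham mice (averaged log2 0.69 ± 0.19). On the list of T and natural killer cell genes, 19 of 24 had a positive averaged log2 fold change (median 0.25), and Cd3e (0.57), Cd8b1 (0.62) and Cd8a (0.38) had an unadjusted p under 0.05. Of all genes, 50.2% were positive and 3.25% were higher at that p. Each of these 3 overlapped in both operations.

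Further genes alike and higher were Kbtbd11 (averaged log2 0.39 ± 0.09), Klhdc1 (0.76 ± 0.20), the free fatty acid receptor gene Ffar1 (0.39 ± 0.14), Agap3 (0.27 ± 0.10), Wrnip1, which encodes a partner of the Werner helicase (0.31 ± 0.09), and the RNA-binding protein gene Pcbp1 (0.33 ± 0.12). Kbtbd11 had 37.1, 37.8 and 43.2 CPM in Sham-E against 27.3, 33.0 and 26.6 in Sham, and 41.1, 37.4 and 42.6 in MI-E against 32.1, 30.1 and 34.2 in MI. It was higher in all EMPA libraries by counts, but it overlapped in infarcted mice by TPM, and 24.8% of its exon bases are shared with Gm37844 on the opposite strand. Klhdc1 ranged in TPM from 0.85 to 26.71 over single libraries and overlapped there too. Ffar1 had 9.34, 9.01 and 7.55 CPM in Sham-E against 6.53, 7.47 and 5.60 in Sham, and 7.19, 9.67 and 7.64 in MI-E against 6.42, 6.54 and 5.97 in MI, and it was alike by TPM as well. Agap3, Wrnip1 and Pcbp1 were not alike by TPM. Of the 57 alike genes, 47 had a mean TPM of at least 1, and 18 of these were alike by TPM, 10 higher and 8 lower.

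Among genes alike and lower, the osteocalcin gene Bglap2 had the largest difference of those with a known product. Osteocalcin is a bone matrix protein that osteoblasts make. Bglap2 had 0.0865, 0.311 and 0.355 CPM in Sham-E against 1.15, 1.76 and 4.17 in Sham, and 0.127, 0 and 0.0455 in MI-E against 0.168, 0.149 and 0.592 in MI. The EMPA libraries were lower in both operations, at levels of few counts in the Sham-E, MI-E and MI libraries (averaged log2 -2.72 ± 0.62, unadjusted p = 0.000815). MI-E 2 (0.127 CPM) and MI 2 (0.149 CPM) lay so close that their order may rest on the scaling of libraries. Its neighbour Bglap had 0.130, 0.388 and 0.578 CPM in Sham-E against 2.77, 2.71 and 5.04 in Sham, and 0.338, 0.0476 and 0.0910 in MI-E against 0.294, 0.248 and 0.395 in MI. Sham-E lay far below Sham, whereas MI-E 2 lay between MI libraries (averaged log2 -2.08 ± 0.47, unadjusted p = 0.000678). The copies are nearly identical, so the split of reads between them is uncertain. MI without EMPA was already low in both genes.

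On the stroma and bone list, which holds both osteocalcin genes, 16 of 26 genes had a positive and 10 a negative averaged log2 fold change (median 0.06). Of the 26, 4 had an unadjusted p under 0.05, all lower with EMPA, against 2.5% of all genes: Bglap, Bglap2, Runx2, the master factor of osteoblasts (-0.27 ± 0.10), and Col1a1, which encodes type I collagen (-0.98). Cxcl12, the niche chemokine that holds B-cell precursors in the marrow, had 89.3, 44.3 and 228 CPM in Sham-E against 188, 82.5 and 104 in Sham, and 267, 192 and 300 in MI-E against 129, 73.1 and 120 in MI. It overlapped in sham mice and not in infarcted mice (averaged log2 0.59 ± 0.36, and 0.16 without Sham-E 3). Its receptor gene Cxcr4 overlapped in both (-0.0019 ± 0.15).

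**Figure D4:**
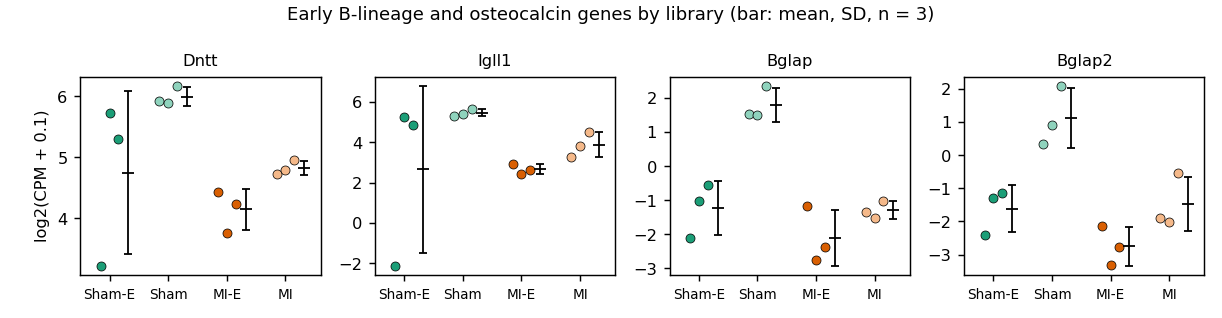
Log2(CPM + 0.1) of Dntt, Igll1, Bglap and Bglap2 in every library (points), with mean and SD over 3 libraries (bars), for Sham-E, Sham, MI-E and MI. The EMPA libraries lie below those without EMPA in both operations for Dntt, Igll1 and Bglap2, Sham-E 1 is the lowest Sham-E library in all 4 genes, and MI-E 2 overlaps MI for Bglap.

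Of 22 tested early B-lineage genes, 2 were alike and lower, against 0.152% of all genes. Dntt, which encodes terminal transferase, the enzyme that adds bases where receptor segments are joined, had 9.21, 52.8 and 39.5 CPM in Sham-E against 60.7, 59.2 and 72.2 in Sham, and 21.4, 13.5 and 18.8 in MI-E against 26.3, 27.6 and 30.8 in MI. Igll1, a part of the surrogate light chain of pro-B and pre-B cells, had 0.130, 37.5 and 29.1 CPM in Sham-E against 39.8, 42.8 and 50.9 in Sham, and 7.57, 5.29 and 6.05 in MI-E against 9.53, 14.1 and 22.7 in MI. All EMPA libraries were lower in both genes, and Sham-E 1 was far below the others. The averaged log2 fold changes were -0.79 ± 0.32 for Dntt (unadjusted p = 0.0327) and -1.14 ± 0.68 for Igll1 (0.12), and -0.56 and -0.85 without Sham-E 1. Rag1, the recombinase gene, overlapped in both operations (-0.62 ± 0.76, and -0.14 without MI 2). It had 1.21 CPM in Sham-E 1, against 185.4 and 206.9 in the other Sham-E libraries.

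The early B-lineage list as a whole had 21 of 22 genes with a negative averaged log2 fold change and a median of -0.27, -0.54 in sham mice and -0.09 in infarcted mice. Of the 22, 15 were negative in each operation (19.7% of all genes were). In infarcted mice 3 genes of the list were higher with EMPA without overlap, as many as the 3 that were lower. In sham mice these numbers were 0 and 6, and 1 gene had no overlap in opposite directions. An unadjusted p under 0.05 was seen in 2, both lower, against 2.5% of all genes. These were Dntt and Cd93 (-0.30 ± 0.10), a surface protein that early B cells share with myeloid precursors. Without Sham-E 1 the median was -0.10, and -0.18 in sham mice, with 15 genes negative and 7 positive, so most of the list's difference in sham mice lay in that library.

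The other named genes alike and lower had small differences. Rrm2b, a ribonucleotide reductase subunit under p53, had 23.8, 34.8 and 36.4 CPM in Sham-E against 40.5, 48.2 and 42.6 in Sham, and 24.6, 27.0 and 21.7 in MI-E against 27.5, 40.2 and 28.9 in MI (averaged log2 -0.43 ± 0.13). Gnb4, a G protein beta subunit, had 4.32, 7.57 and 6.67 CPM in Sham-E against 10.2, 7.63 and 9.93 in Sham, and 3.89, 6.00 and 5.005 in MI-E against 6.21, 7.24 and 7.99 in MI (-0.55 ± 0.18). The EMPA libraries were lower in both genes in both operations, and Gnb4 but not Rrm2b was alike by TPM. The others were Mterf1b, of the mitochondrial transcription termination family (-0.56), Pogk (-0.38), Zfp773 (-0.62), the cell-cycle factor gene E2f5 (-0.48), Snapc3 of the small nuclear RNA activating complex (-0.25), Hibadh of valine breakdown (-0.26), the RNA polymerase III subunit gene Polr3b (-0.17) and Adi1 of methionine salvage (-0.19). Mterf1b and Adi1 were alike by TPM as well. Pogk, E2f5, Snapc3, Hibadh and Polr3b were not, and Zfp773 was too low in TPM to be read there.

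Several lists reached a similar averaged median by different routes. Histone genes had a median of 0.46, the highest of all lists, but -0.50 in sham mice and 1.35 in infarcted mice, and 15 of 56 had no overlap in opposite directions. Immediate early genes (averaged 0.41, sham -0.16, infarcted 0.92), DNA replication genes (0.21, -0.09 and 0.52) and the 7 tested of 13 listed genes of the mitochondrial genome (-0.45, 0.11 and -0.88) likewise differed mainly in infarcted mice. Mitochondrial genes took 1.60, 1.37 and 1.87% in Sham-E against 1.67, 1.49 and 1.49% in Sham, and 1.33, 1.86 and 1.41% in MI-E against 2.41, 3.58 and 2.23% in MI, of all counts. The share overlapped in sham mice and was lower in all MI-E than in all MI libraries. Megakaryocyte genes went opposite ways, -0.56 in sham mice and 0.76 in infarcted mice, and averaged 0.05.

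Primary granule genes, which early neutrophil precursors express, were positive in 13 of 13 (median 0.41, sham 0.58, infarcted 0.26). Their mean log2 CPM was 9.10 in Sham-E 1, against 7.75 and 7.52 in the other Sham-E libraries and 7.61 to 7.82 in Sham, and without Sham-E 1 the median was 0.08. Interferon response genes were negative in 37 of 38 (median -0.26, sham -0.17, infarcted -0.53), with 0 at an unadjusted p under 0.05. Without Sham-E 1 the median was -0.14, and without MI 2 it was -0.10. Each of these lists therefore leaned on single libraries. The class II median moved less, but that list was put together after values had been seen, so its steadiness cannot be set against theirs.

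**Figure D5:**
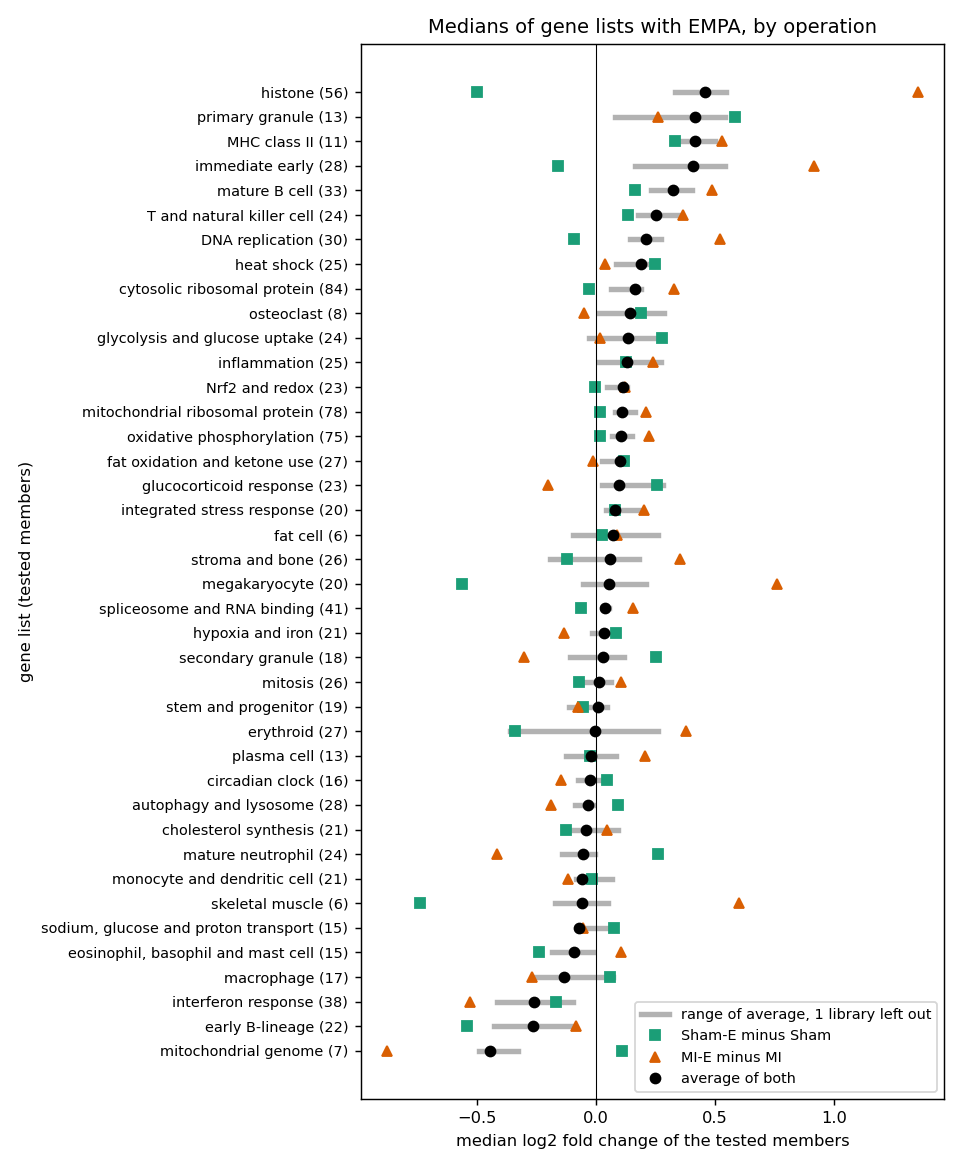
Median log2 fold change of the tested members of 40 gene lists (count in brackets) in sham mice (squares), in infarcted mice (triangles) and averaged (circles), with the range of the averaged median when 1 library is left out (grey bars). Class II, mature B cell and T cell lists lie right of 0 in both operations. So do the primary granule, inflammation, heat shock, glycolysis, integrated stress response, fat cell, mitochondrial ribosomal protein and oxidative phosphorylation lists, some by little. Histone, immediate early and megakaryocyte lists are among those on opposite sides.

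Ribosomal protein and respiratory chain genes were positive in most members by small amounts. Of 84 cytosolic ribosomal protein genes 76 had a positive averaged log2 fold change (median 0.16), 14 had an unadjusted p under 0.05, all higher, and Rpl38 (0.44 ± 0.16) and Rpl36a (0.35 ± 0.14) were alike. Of all genes, 50.2% were positive, 3.25% were higher at that p and 0.225% were alike and higher. The median of the 84 genes was -0.03 in sham mice and 0.33 in infarcted mice. Of the 84, 5 had no overlap in opposite directions, more than were alike (1.95% of all genes had this pattern). Among these was Rpl28, at log2 -0.15 in sham mice and 1.07 in infarcted mice. Rpl22l1 (0.43 ± 0.15) and Rpl39 (0.36 ± 0.12) overlapped in sham mice, and by TPM so did Rpl38 and Rpl36a. Mitochondrial ribosomal protein genes (66 of 78 positive, median 0.11) and oxidative phosphorylation genes (61 of 75 positive, median 0.11) also differed mainly in infarcted mice. Their medians were 0.02 and 0.02 in sham mice, and 0.21 and 0.22 in infarcted mice. Both lists had 0 alike genes, while 5 and 3 genes had no overlap in opposite directions. Many ribosomal protein genes have processed copies, so their counts are uncertain.

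The target of the drug was near the limit of detection in marrow. Slc5a2, which encodes SGLT2, had 0, 6 and 9 counts in Sham-E against 13, 10 and 21 in Sham, and 14, 28 and 33 in MI-E against 0, 5 and 6 in MI. It was lower with EMPA in sham mice and higher in infarcted mice, without overlap in either (log2 -1.49 and 2.66, averaged 0.59 ± 0.66, and 0.19 without Sham-E 3), and 20.6% of its exon bases are shared with BC017158 on the opposite strand. Slc5a1, which encodes SGLT1, had 1 count in Sham 3 and 0 in the other 11 libraries, and was not tested. The 15 tested genes of sodium, glucose and proton transport had a median of -0.07, with 0 at an unadjusted p under 0.05.

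Genes of mature neutrophils were nearly level on average, and the operations differed in sign. Wfdc21, a secreted whey acidic protein, had 371, 222 and 267 CPM in Sham-E against 174, 182 and 193 in Sham, and 298, 463 and 318 in MI-E against 712, 667 and 482 in MI. It was higher with EMPA in sham mice and lower in infarcted mice, without overlap in either (averaged log2 -0.07 ± 0.16). The formyl peptide receptor genes Fpr1 and Fpr2 averaged -0.06 ± 0.11 and -0.11 ± 0.14. The mature neutrophil list had medians of 0.26 in sham mice and -0.41 in infarcted mice, and -0.06 on average. In the interaction, which tests whether EMPA's effect differed between operations, 1 gene was called (0.00661%), B430305J03Rik (edgeR adjusted p = 0.0072), and 2042 had an unadjusted p under 0.05 (13.5%). B430305J03Rik had 7.74, 3.42 and 4.58 CPM in Sham-E against 9.85, 8.21 and 7.19 in Sham, and 4.44, 5.72 and 6.33 in MI-E against 0, 0.149 and 0 in MI. Its averaged log2 fold change of 3.01 ± 0.40 thus came from infarcted mice, and its exons overlap wholly with those of Rap2b, which lies on the other strand. Among genes of the naming rule, the smallest interaction p-values belonged to the transporter gene Slco4c1 (log2 0.20 in sham and -0.86 in infarcted mice), the prefoldin gene Pfdn6 (-0.33 and 1.04) and the receptor genes Gpr141 (0.48 and -0.49) and Gpr65 (0.50 and -0.66), none past the threshold (edgeR adjusted p = 0.22).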

How the data were processed

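RNA from bone marrow was sequenced in 12 libraries, 3 in each of 4 groups taken from the sample titles. Reads were handled with STAR 2.4.0j, RSEM and CASAVA 1.8 on build mm10, per the submitters' processing notes, which list names without roles; the strand setting is not given in the sources. The authors deposited RSEM expected counts per gene, unscaled and already whole, and a TPM table, scaled for transcript length to a common total. Library names follow the column names, which carry the numbers 1, 3 and 4 for Sham and 2, 3 and 4 for MI-E; those columns were matched to their group, not to single samples.

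Genes were kept by filterByExpr of edgeR 4.0.16 (R 4.3.3) with the 4 groups, scaled by TMM (factors 0.94 to 1.06) and fitted with a mean for each group (quasi-likelihood F-test, 8 residual degrees of freedom, Benjamini-Hochberg adjustment over 15119 genes, threshold 0.05). SE was taken as the absolute log2 fold change divided by the root of F. CPM values are counts on TMM-scaled library sizes. Insert length was estimated from the ratio of counts to TPM in genes with 1 transcript. Exons came from GENCODE M21 (mm10), where 15103 tested IDs were found, and promoter windows from RefSeq (GRCm38.p6). The fit was tested on simulated data.

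Named genes were up to 12 in each direction, alike in both operations, past the threshold or filled up by smallest p, at a mean log2 CPM of 1 or more, with no Gm, Rik, -ps, clone or receptor segment symbols; up to 3 of smallest p from each of 39 lists with an alike member; a fixed group always read, of which some are not reported here; and 4 from the interaction. The contrast, the lists and these rules were chosen with earlier results of these data known, and 2 lists (MHC class II and the osteocalcin genes) after values had been seen here. Alternatives were other scaling, filters and models, DESeq2 1.42.0, limma 3.58.1 (voom, and log2 TPM with pseudocounts of 1 and 0.1) and each library left out.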

Additional observations from a re-analysis of the deposited data

Results flagged for a closer look

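In all, 6 results differed between the operations. The effect of EMPA on B430305J03Rik differed by edgeR's test of the interaction (adjusted p = 0.0072), and its exons overlap wholly with those of Rap2b on the other strand. In the other 5 genes every EMPA library moved one way in sham mice and the other way in infarcted mice, and none passed the interaction test over all genes, where the smallest edgeR adjusted p after B430305J03Rik was 0.177. The interaction, as the log2 fold change in infarcted mice minus that in sham mice, was 4.15 for Slc5a2, which rests on at most 33 counts per library, 1.22 for Rpl28, -1.44 for Wfdc21, -0.965 for Gpr141 and -1.16 for Gpr65. Gpr65, an acid-sensing receptor gene, had 39.5, 38.3 and 39.3 CPM in Sham-E against 24.1, 31.0 and 27.9 in Sham, and 36.5, 39.3 and 28.8 in MI-E against 48.6, 62.2 and 54.9 in MI. Among all genes, 295 (1.95%) had this pattern. Groups of 3 libraries are too small for a check of single outlying samples.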

How the results depend on the processing

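The averaged contrast had 0 called genes with edgeR under RLE and upper-quartile factors, with a mean CPM of at least 1, with haemoglobin and immunoglobulin genes left out and in the additive model, and 0 with limma voom. It had 1 with no filter (B430305J03Rik), 9 with DESeq2, 2 with limma on log2(TPM + 1) and 2 on log2(TPM + 0.1), and 0 to 11 with 1 library left out, 11 without MI 1 and 1 without MI 2. Sham-E against Sham had 2 with DESeq2. MI-E against MI, with 1 called, had 33 with no filter, 3 with a mean CPM of at least 1, 577 with DESeq2, 85 and 73 on log2(TPM + 1) and log2(TPM + 0.1), and 1 to 988 with 1 library left out, 988 without MI 1, 42 without Sham-E 1 and 2 without Sham-E 2. The interaction had 152 with DESeq2, 0 with limma voom, 18 and 12 on the TPM scales, and 1 to 150 with 1 library left out, 150 without MI 1 and 2 without Sham-E 2. With the column number as a replicate block the interaction had 0, the averaged contrast and Sham-E against Sham 0 and MI-E against MI 1. Of 13 pairs with the same number 4 correlated over 0.1, against 6 of 41 other pairs (median r -0.0069 and -0.00059). So few pairs cannot settle whether the numbers pair the samples. Genes alike numbered 45 to 69 under other scaling, filters and count models, 42 by TPM (17 of them higher), 13 with an unadjusted p under 0.05 required in each operation and 23 with an absolute log2 fold change of at least 0.5 in each. With 1 library left out they numbered 85 to 178 (43 to 100 higher, 36 to 84 lower), and those in opposite directions 342 to 876, since 2 libraries separate more easily than 3. Of 50 named genes, 44 kept their sign in every setting run. Many of them were chosen for no overlap or a small p in these same libraries, which largely fixes the sign. The count is therefore no measure of how steady the results are, and the share over all genes was not worked out. Cxcr4 was 0.0040 with upper-quartile factors and Gpr141 0.013 with the replicate block. With 1 library left out the averaged log2 fold change ran from -0.072 to 0.115 for Cxcr4, -0.060 to 0.033 for Gpr141, -0.241 to 0.026 for Ighm, -0.183 to 0.0079 for Wfdc21, -0.126 to 0.010 for Fpr1 and -0.026 to 0.366 for Ms4a1. The cause of these shifts was not tested. With 3 libraries a group, small differences in genes of few counts could not be resolved.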

Other observations

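Some genes alike in both operations had mean log2 CPM values below the level set for named genes and are given after their values were seen. Pdcd1lg2, which encodes the PD-1 ligand PD-L2, had 0.865, 0.815 and 1.02 CPM in Sham-E against 0.384, 0.369 and 0.556 in Sham, and 0.719, 0.667 and 0.819 in MI-E against 0.378, 0.397 and 0.148 in MI. The EMPA libraries were higher in both operations (averaged log2 1.13 ± 0.32). Cyp2s1, a cytochrome P450 gene, had 1.08, 0.233 and 0.133 CPM in Sham-E against 0, 0.123 and 0.119 in Sham, and 1.01, 0.620 and 0.910 in MI-E against 0.168, 0.0496 and 0.296 in MI. Sham-E 3 and Sham 3 lay so close at few counts that their order may rest on the scaling of libraries. Clec1a, a C-type lectin gene, had 0.130, 0.349 and 0.311 CPM in Sham-E against 0.512, 0.451 and 0.794 in Sham, and 0.254, 0.143 and 0.273 in MI-E against 0.462, 0.446 and 0.691 in MI, so it was lower with EMPA in both operations (-1.18 ± 0.38). Of nuclear genes for mitochondrial proteins, Mecr of mitochondrial fatty acid synthesis (0.23) and Yars2, which charges mitochondrial tyrosine tRNA (0.25), were alike and higher by less than 0.3 on the log2 scale. Neither was alike by TPM.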
